A study of Homo sapiens with 12 samples.

Results

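The clustered protocadherins are 54 genes of chromosome 5q31, out of 59087 features in the count table: 16 of the alpha, 16 of the beta and 22 of the gamma cluster. They were chosen by symbol alone, as PCDHA, PCDHAC, PCDHB, PCDHGA, PCDHGB or PCDHGC followed by a number, with symbols that end in P (pseudogenes) left out. All lie on the plus strand between position 140786136, the start of PCDHA1, and position 141512981, the end of the gamma cluster (GRCh38, GENCODE release 29). PCDHA14 fits the rule although GENCODE types it as a pseudogene, and it had 0 counts in every library.

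Poly(A) RNA was sequenced from SH-SY5Y, a long-used cell line of human neuroblastoma, bought from ATCC. The knockout groups are 3 separately made FMR1-KO lines, called line 1, line 2 and line 3 here, each with 1 library from heavy and 1 from light SILAC medium. The wild-type groups are SH-SY5Y cells with intact FMR1, with 3 libraries from heavy and 3 from light medium. All cells, knockout and wild type alike, had spent 2 weeks in DMEM:F-12 SILAC medium with dialyzed fetal bovine serum, in which the arginine and lysine carried heavy isotopes (13C6,15N4 and 13C6,15N2) or ordinary ones. The product of FMR1, FMRP, binds messenger RNAs and controls their translation. The labels do not say how the lines were made or whether each grew from 1 cell, and nothing in them says that the wild-type libraries came from separately derived cells, so p-values measure the spread between these libraries, which may be technical. What FMR1 loss did and what deriving each line did cannot be told apart.

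Protocadherins are cadherin-type adhesion proteins of the cell surface, best known from neurons, where cells with the same set of isoforms recognise each other. In the alpha and gamma clusters each variable exon has its own promoter and is spliced to constant exons shared by the whole cluster, while each beta gene is a single exon with no constant part. A cell transcribes only some of the variable isoforms, and the choice depends on CTCF and cohesin, which loop a promoter to distant enhancers, and on DNA methylation of the promoters not in use. The choice is passed on at cell division, so lines grown from different cells can differ in isoforms. PCDHAC1, PCDHAC2, PCDHGC3, PCDHGC4 and PCDHGC5, at the ends of their clusters, are the C-type isoforms, which mouse neurons do not choose in that way.

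The promoters of the variable genes share short sequence boxes, and those of the genes on which the results turn are shown here. RefSeq windows on GRCh38.p14, from 250 bases before to 50 bases after the gene start, were found for 47 of the 54 genes; PCDHA3, PCDHA13, PCDHA14, PCDHB6, PCDHB11, PCDHGA12 and PCDHGC5 were not among them. The first pair are the beta genes with the smallest p for a difference among lines, PCDHB15 (chr5:141245145-141245444) and PCDHB12 (chr5:141208469-141208768), both read 5′ to 3′ on the plus strand, with the box GGTGGCGCTG in capitals.
PCDHB15: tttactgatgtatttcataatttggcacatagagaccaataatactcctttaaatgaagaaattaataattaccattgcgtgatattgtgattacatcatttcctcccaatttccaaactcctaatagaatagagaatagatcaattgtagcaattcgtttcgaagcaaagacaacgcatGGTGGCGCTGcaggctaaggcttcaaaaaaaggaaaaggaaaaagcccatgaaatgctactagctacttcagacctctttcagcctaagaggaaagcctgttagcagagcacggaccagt
PCDHB12: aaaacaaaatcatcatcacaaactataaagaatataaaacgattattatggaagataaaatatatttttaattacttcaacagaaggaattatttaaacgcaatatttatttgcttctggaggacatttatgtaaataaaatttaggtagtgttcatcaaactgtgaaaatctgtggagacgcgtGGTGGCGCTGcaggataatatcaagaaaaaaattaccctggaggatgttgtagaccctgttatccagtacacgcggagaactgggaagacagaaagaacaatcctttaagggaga
That box stood in 12 of the 14 beta windows, in 0 of 13 alpha and in 0 of 20 gamma windows, and in 0.276% of the 35116 windows of all genes, on either strand. Of the beta genes, PCDHB1 and PCDHB14 lacked these letters. Each box is the 10-letter word around CGCT found in the most windows of its cluster, so its frequency there is a description.
Shorter stretches of PCDHB9 (chr5:141187055-141187124), PCDHB10 (chr5:141192280-141192349) and PCDHB8 (chr5:141177758-141177827) are given with the same box in capitals, since these nearby genes differed in the line or the direction of their change.
PCDHB9: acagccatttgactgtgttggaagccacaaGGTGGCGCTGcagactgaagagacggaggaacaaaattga
PCDHB10: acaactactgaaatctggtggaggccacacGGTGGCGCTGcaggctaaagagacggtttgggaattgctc
PCDHB8: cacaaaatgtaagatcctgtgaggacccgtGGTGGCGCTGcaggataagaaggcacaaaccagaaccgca
PCDHB15, PCDHB12, PCDHB9, PCDHB10 and PCDHB8 carried the same 10 letters and, in the results given later, had different patterns of change over the 3 lines.
For the gamma cluster the windows of PCDHGA7 (chr5:141382492-141382791), with the box GCGCCGCTGT in capitals, and PCDHGB7 (chr5:141417427-141417726), with CGCT in capitals, are shown as the variable gamma genes with the smallest p among lines. PCDHGB7 lacks the whole gamma box. Its capitals mark only the word CGCT, and whether that stretch is the counterpart of the box was not tested.
PCDHGA7: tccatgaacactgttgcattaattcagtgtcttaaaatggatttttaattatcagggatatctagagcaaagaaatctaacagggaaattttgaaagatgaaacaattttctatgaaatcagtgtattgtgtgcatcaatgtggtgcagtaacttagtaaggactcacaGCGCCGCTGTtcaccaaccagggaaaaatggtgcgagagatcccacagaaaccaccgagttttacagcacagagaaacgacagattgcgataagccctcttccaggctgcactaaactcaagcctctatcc
PCDHGB7: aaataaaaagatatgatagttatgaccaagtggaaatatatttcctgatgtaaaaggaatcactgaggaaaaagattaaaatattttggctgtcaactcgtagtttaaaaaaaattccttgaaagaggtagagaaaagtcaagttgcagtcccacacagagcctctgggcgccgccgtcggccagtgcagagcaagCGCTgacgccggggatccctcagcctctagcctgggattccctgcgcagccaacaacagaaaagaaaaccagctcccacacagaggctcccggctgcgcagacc
The gamma box stood in 9 of 20 gamma windows, among them PCDHGA1, PCDHGA7, PCDHGB4 and PCDHGB6, and in 0.131% of all windows. The core CGCT, which all 3 boxes contain, stood in 70.0% of all windows. In the alpha cluster PCDHA8 (chr5:140841110-140841179) and PCDHA10 (chr5:140855823-140855890), which went in opposite directions in line 2, are shown. Capitals mark the box TGATGTCGCT in PCDHA8 and, in PCDHA10, which lacks the whole box, its last 8 letters ATGTCGCT.
PCDHA8: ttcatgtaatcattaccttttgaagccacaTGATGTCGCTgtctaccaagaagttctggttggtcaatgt
PCDHA10: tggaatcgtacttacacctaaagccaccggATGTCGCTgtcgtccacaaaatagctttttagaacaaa
The whole box stood in 8 of 13 alpha windows and in 0.0342% of all windows.

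Libraries held 25935152 to 40257027 counts, and levels are given as CPM, counts scaled to a common TMM-adjusted library size. FMR1, the targeted gene, stood at 22.4 and 11.4 CPM in line 1, 12.8 and 11.5 CPM in line 2 and 7.19 and 9.05 CPM in line 3, heavy medium first in each pair, against 35.9 to 42.0 CPM in wild type. The library labelled line 1, heavy medium, stands apart, with 59.3% of the wild-type mean of FMR1, where the other 5 knockout libraries held 19.1% to 33.9%. It also lay between line 1 in light medium and the wild-type mean for all 10 of the 10 protocadherins called in line 1, for 14 of the 35 tested and not called, and so for 24 of the 45 tested. Values of line 1 are therefore given with and without it. Its part in these results was not tested. Of the 11 neuroblast markers, 10 averaged at least 1 CPM (all but TH, tyrosine hydroxylase), and they summed to 7260 to 9250 CPM in knockout and 8920 to 9910 CPM in wild-type libraries. Fibroblast markers summed to 0.99 to 5.17 CPM in knockout and 4.84 to 5.95 CPM in wild-type libraries, epithelial markers to 2.61 to 5.44 and 2.04 to 3.00 CPM, and blood markers to at most 0.134 and 0.161 CPM. Of the glial markers, S100B had 0.368 to 2.57 CPM in knockout and 0.516 to 0.766 CPM in wild-type libraries. SOX10, GFAP, PRRX1, KRT5, PTPRC, CD3E and HBB were at 0 in every library, and the part of other cell types in the results was not tested.

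In wild-type cells expression was spread over the beta cluster and a few gamma genes. Of the 54 genes, 27 averaged at least 1 CPM and 8 at least 10 CPM in wild type. Levels of different genes are compared as CPM per kilobase of own exon, the exon bases of a gene that no other gene shares. On that scale PCDHGC3 was highest at 12.5 ± 0.599 (SD, n = 6), followed by PCDHGC4 at 8.40 ± 0.463 and PCDHB3 at 6.80 ± 0.175, with no overlap between these 3. PCDHGB7 at 5.47 ± 0.389 and PCDHB6 at 5.27 ± 0.360 overlapped each other, and so did PCDHB14 at 3.97 ± 0.140 with PCDHGA7 at 3.52 ± 0.219, and PCDHGA7 with PCDHB4 at 3.19 ± 0.140. PCDHB10 at 2.75 ± 0.180, PCDHAC2, the highest of the alpha cluster, at 2.27 ± 0.0881 and PCDHB15 at 1.59 ± 0.186 came next, each clear of the next. From PCDHB9, at 1.26 ± 0.0830, down to PCDHA11 each gene overlapped the next in the order. The other alpha genes reached at most 0.673 CPM per kilobase, in PCDHA12.

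**Figure D1:**
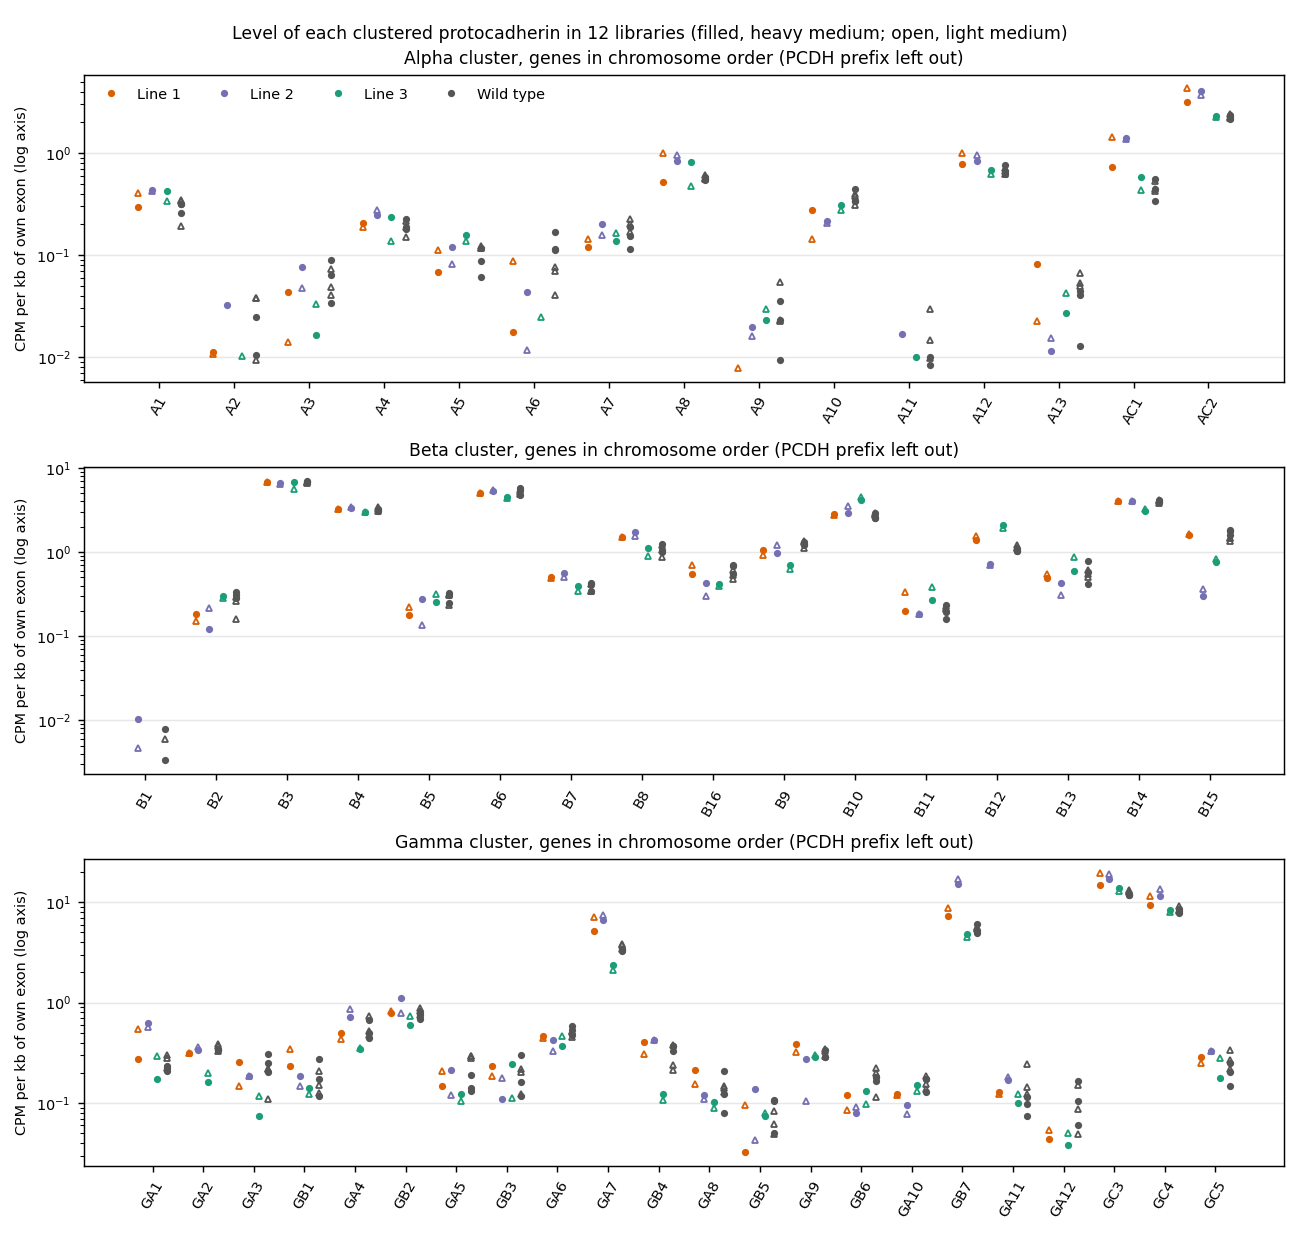
Level of each clustered protocadherin in the 12 libraries as CPM per kilobase of own exon on a log axis, in chromosome order within the alpha, beta and gamma clusters; colours mark the 3 knockout lines and wild type, filled circles heavy and open triangles light medium, and libraries at 0 are not drawn. PCDHGC3 tops the gamma panel in every library, PCDHGB7 lies above PCDHGC4 in line 2 only, and PCDHB15 of line 2 and PCDHGB7 of line 2 lie away from their wild-type points.

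The test covered 45 of the 54 genes (10 alpha, 15 beta, 20 gamma). The other 9, PCDHA2, PCDHA3, PCDHA9, PCDHA11, PCDHA13, PCDHA14, PCDHB1, PCDHGB5 and PCDHGA12, had at most 16 counts in any library and did not pass the filter on low counts. Of these PCDHGA12 had 0 counts in both libraries of line 2, where 3 counts, the limit that a count of 0 allows, are 0.0846 and 0.116 CPM; it had 0.116 and 0.141 CPM in line 1, 0.100 and 0.133 CPM in line 3 and 0.131 to 0.440 CPM in wild type. Members at 0 to 3 counts show that reads of the shared constant exons were not credited to every gene of a cluster.

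Each line was then set against wild type, with all 12 libraries in 1 fit and the medium as a covariate, and p-values adjusted over all 16704 genes tested. In line 1, 10 of the 45 genes passed an adjusted p of 0.05 (22.2%, beside 28.2% of all genes tested), 9 higher and 1 lower. In line 2, 18 of 45 passed (40.0%, beside 43% of all genes), 10 higher and 8 lower. In line 3, 8 of 45 passed (17.8%, beside 5% of all genes), 2 higher (beside 3.27% of all genes) and 6 lower (beside 1.73%). The shares of lines 1 and 2 were below the share over all genes, and that of line 3 was above it; no test compared these shares. The median absolute log2 fold change of the members was 0.32, 0.48 and 0.25 in lines 1, 2 and 3. Over all genes it was 0.18, 0.24 and 0.11. For heavy against light medium in the same fit, with 0 members called, it was 0.116 for the members and 0.0591 over all genes. A larger median of the members is thus not particular to the lines. Together 23 genes passed in at least 1 line, 12 of them in 1 line, 9 in 2 lines and 2 in all 3. Those 2, PCDHB12 and PCDHGA7, moved in opposite directions in different lines. The lines share the wild-type libraries, so their contrasts are not independent. In bulk RNA, fewer cells that use an isoform and less RNA per cell cannot be told apart.

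**Figure D2:**
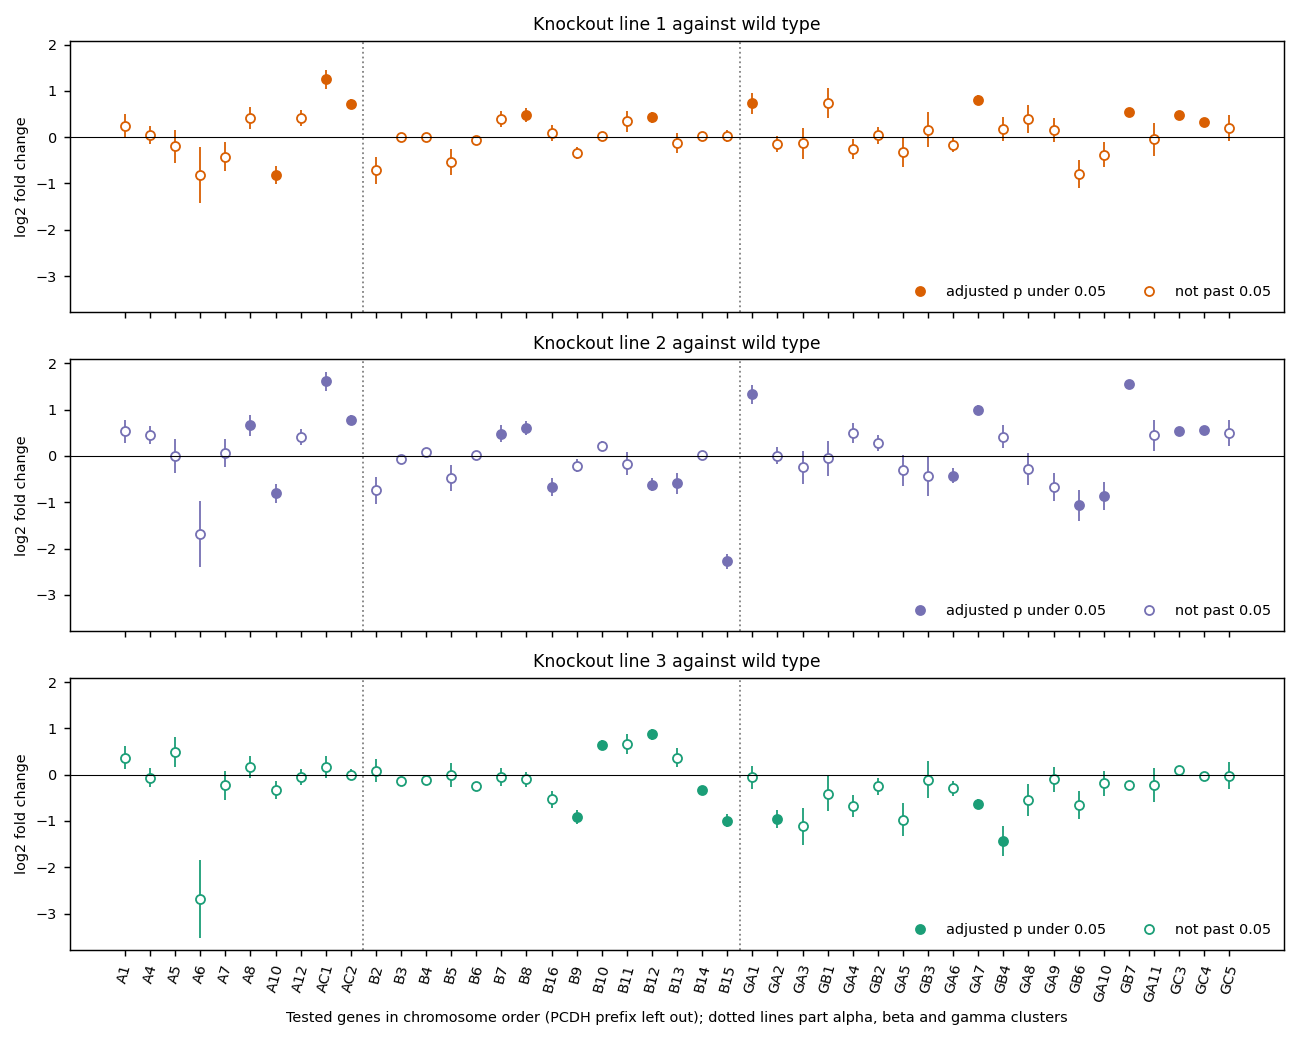
Log2 fold change of each of the 45 tested genes in knockout line 1, 2 and 3 against wild type (vertical axis) in chromosome order, with bars of 1 SE; filled points passed an adjusted p of 0.05. PCDHB15 stands lowest in line 2 at -2.28, the C-type genes PCDHAC1 and PCDHAC2 are raised in lines 1 and 2 and not in line 3, and 19 of the 20 gamma points of line 3 lie below 0.

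The C-type isoforms rose in lines 1 and 2. Of the 5, PCDHAC1, PCDHAC2, PCDHGC3 and PCDHGC4 passed in line 1 and in line 2, all higher (80.0%). Of all genes tested, 15.4% were called higher in line 1 and 22.9% in line 2. In line 3, 0 of the 5 passed, beside 5% of all genes, a share at which 0 of 5 says little. There 0 also passed unadjusted in edgeR, DESeq2 and limma-voom. PCDHGC3 (chr5:141475947-141512979) had 48.7 and 64.0 CPM in line 1, 55.2 and 62.0 CPM in line 2 and 45.1 and 41.6 CPM in line 3, against 38.4 to 43.0 CPM in wild type with a median of 40.4. Both libraries of lines 1 and 2 lay above the wild-type range, and line 3 overlapped it. Its log2 fold change was 0.47 ± 0.073 (SE) in line 1 and 0.53 ± 0.073 in line 2 (adjusted p = 9.44e-05 and 1.12e-05), beside 0.10 ± 0.075 in line 3.
PCDHGC4 (chr5:141484997-141512979) had 26.4 and 32.3 CPM in line 1, 32.1 and 37.7 CPM in line 2 and 23.5 and 22.5 CPM in line 3, against 22.0 to 25.7 CPM in wild type with a median of 23.2. It rose by a log2 fold change of 0.32 in line 1 and 0.57 in line 2 (adjusted p = 0.00444 and 8.71e-06).
PCDHAC1 (chr5:140926369-141012344) had 2.99 and 5.91 CPM in line 1, 5.69 and 5.56 CPM in line 2 and 2.37 and 1.78 CPM in line 3, against 1.39 to 2.27 CPM in wild type with a median of 1.81. Lines 1 and 2 lay wholly above wild type, with the heavy library of line 1 the nearest to it. The rise was 1.25 ± 0.21 on the log2 scale in line 1 and 1.61 ± 0.21 in line 2 (adjusted p = 0.00025 and 6.89e-06).
PCDHAC2 (chr5:140966235-141012344) had 11.0 and 14.8 CPM in line 1, 14.1 and 12.7 CPM in line 2 and 7.99 and 7.72 CPM in line 3, against 7.51 to 8.24 CPM in wild type with a median of 7.82. Its rise was 0.71 ± 0.11 in line 1 and 0.77 ± 0.11 in line 2 on the log2 scale (adjusted p = 5.35e-05 and 1.02e-05). A test of the difference among the 3 lines passed for PCDHAC1, PCDHAC2, PCDHGC3 and PCDHGC4.
PCDHGC5 (chr5:141489121-141512979), the lowest of the 5, had 0.814 and 0.707 CPM in line 1, 0.930 and 0.926 CPM in line 2 and 0.502 and 0.799 CPM in line 3, against 0.417 to 0.954 CPM in wild type with a median of 0.664. All of its groups overlapped, and it did not pass in any line (15 to 33 counts per library).

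**Figure D3:**
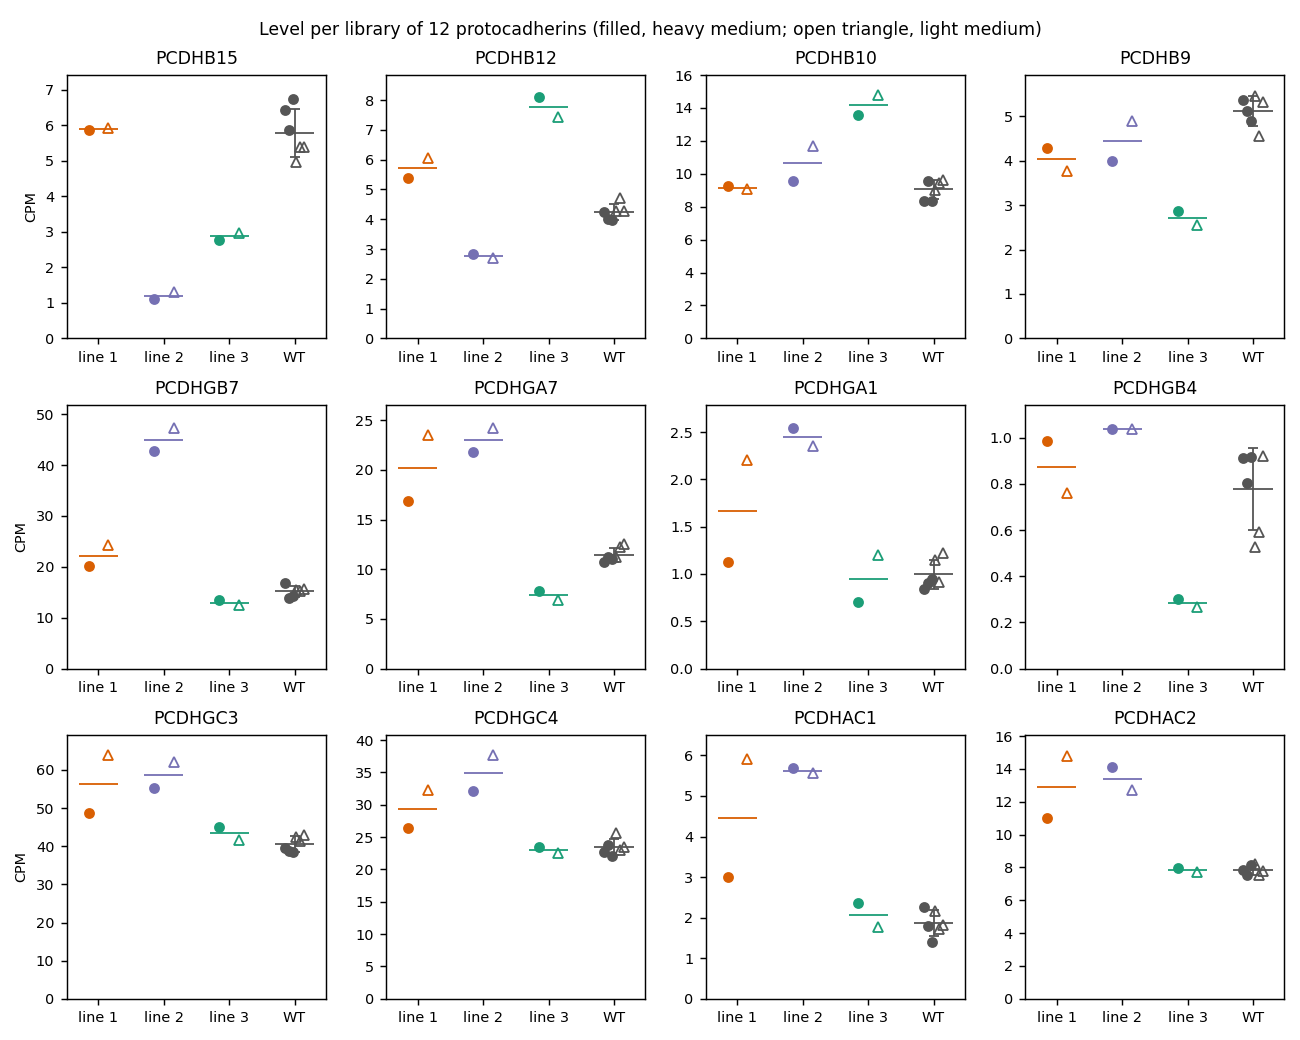
Level of 12 protocadherins in each library in CPM, with the 3 knockout lines left of wild type; filled circles are heavy and open triangles light medium, horizontal bars are means, and the wild-type error bar is the SD of 6 libraries. PCDHB15 is lowest in line 2, PCDHB12 is highest in line 3 and lowest in line 2, and PCDHGB7 of line 2 lies at 42.8 and 47.2 CPM, above every other library.

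Among the variable gamma genes PCDHGB7 and PCDHGA7 had the smallest p for a difference among lines. PCDHGB7 (chr5:141417645-141512979) had 20.1 and 24.3 CPM in line 1, 42.8 and 47.2 CPM in line 2 and 13.4 and 12.5 CPM in line 3, against 13.8 to 16.9 CPM in wild type with a median of 15.3. Line 2 stood well above all other libraries, line 1 lay between line 2 and wild type, and line 3 lay just below wild type. The log2 fold change was 0.54 ± 0.086 in line 1 and 1.56 ± 0.081 in line 2 (adjusted p = 0.000111 and 4.86e-11); in line 3 it was -0.23 ± 0.092 (adjusted p = 0.176).
PCDHGA7 (chr5:141382739-141512979) had 16.9 and 23.5 CPM in line 1, 21.8 and 24.2 CPM in line 2 and 7.79 and 6.95 CPM in line 3, against 10.7 to 12.5 CPM in wild type with a median of 11.2. No line overlapped wild type: lines 1 and 2 lay above it and line 3 below. It rose by 0.81 ± 0.095 in line 1 and by 1.00 ± 0.094 in line 2 on the log2 scale (adjusted p = 4.6e-06 and 1.21e-07) and fell by 0.64 ± 0.11 in line 3 (adjusted p = 0.00136).
PCDHGA1 (chr5:141330571-141512981), the first gene of the cluster, had 1.13 and 2.21 CPM in line 1, 2.54 and 2.35 CPM in line 2 and 0.702 and 1.20 CPM in line 3, against 0.845 to 1.22 CPM in wild type with a median of 0.930. It rose by 0.73 ± 0.22 in line 1 and 1.33 ± 0.21 in line 2 on the log2 scale (adjusted p = 0.0191 and 5.56e-05), although the heavy library of line 1 lay inside the wild-type range.

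Among the low gamma genes, PCDHGB6, PCDHGA10 and PCDHGA6 fell in line 2. PCDHGB6 (chr5:141408021-141512979) had 0.552 and 0.396 CPM in line 1, 0.367 and 0.424 CPM in line 2 and 0.602 and 0.453 CPM in line 3, against 0.525 to 1.02 CPM in wild type with a median of 0.840. PCDHGA10 had 0.552 and 0.537 CPM in line 1, 0.423 and 0.347 CPM in line 2 and 0.669 and 0.586 CPM in line 3, against 0.575 to 0.823 CPM in wild type with a median of 0.733. PCDHGA6 had 2.70 and 2.54 CPM in line 1, 2.45 and 1.89 CPM in line 2 and 2.11 and 2.64 CPM in line 3, against 2.59 to 3.35 CPM in wild type with a median of 2.96. Both libraries of line 2 lay below the wild-type range in each of these 3 genes. Their log2 fold changes in line 2 were -1.07 ± 0.33, -0.87 ± 0.30 and -0.43 ± 0.17 (adjusted p = 0.0136, 0.0263 and 0.0491).
In line 3, PCDHGA2, PCDHGB4 and PCDHGA7 fell. PCDHGA2 (chr5:141338760-141512979) had 1.45 and 1.44 CPM in line 1, 1.55 and 1.66 CPM in line 2 and 0.736 and 0.905 CPM in line 3, against 1.51 to 1.78 CPM in wild type with a median of 1.55. PCDHGB4 (chr5:141387698-141512979) had 0.988 and 0.763 CPM in line 1, 1.04 and 1.04 CPM in line 2 and 0.301 and 0.266 CPM in line 3, against 0.525 to 0.922 CPM in wild type with a median of 0.859. Line 3 lay below all other libraries in both genes, and the log2 fold changes were -0.96 ± 0.20 and -1.43 ± 0.33 (adjusted p = 0.00764 and 0.0133). PCDHGA4 passed among lines only, with 1.34 and 1.19 CPM in line 1, 1.95 and 2.32 CPM in line 2 and 0.936 and 0.958 CPM in line 3, against 1.20 to 2.00 CPM in wild type with a median of 1.39. Of the 20 tested gamma genes, 19 had a log2 fold change below 0 in line 3, beside 48.7% of all genes tested, and PCDHGC3 was the other one. The median was -0.55 over the 11 tested PCDHGA genes and -0.33 over the 6 PCDHGB genes of line 3, beside 0.0048 over all genes; in line 2 these medians were -0.25 and 0.11. Most of these genes are low, and 3 of the 20 passed in line 3.

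The beta genes moved in both directions, some alone and some with neighbours. In line 3 the log2 fold changes of PCDHB10, PCDHB11, PCDHB12 and PCDHB13, in chromosome order, were 0.65, 0.66, 0.87 and 0.37. PCDHB11 and PCDHB13 of these did not pass, and PCDHB9 and PCDHB14, on either side of them, fell. PCDHB15 (chr5:141245349-141249365), the last of the cluster, had 5.87 and 5.94 CPM in line 1, 1.10 and 1.31 CPM in line 2 and 2.78 and 2.98 CPM in line 3, against 4.96 to 6.73 CPM in wild type with a median of 5.63. Line 1 lay inside the wild-type range, and lines 2 and 3 lay below it with no overlap between them. It fell by 2.28 ± 0.17 in line 2 and by 1.00 ± 0.14 in line 3 on the log2 scale (adjusted p = 6.97e-09 and 0.000236); line 1 stood at 0.031 ± 0.13.
PCDHB12 (chr5:141208697-141212571) had 5.38 and 6.05 CPM in line 1, 2.82 and 2.70 CPM in line 2 and 8.09 and 7.45 CPM in line 3, against 3.98 to 4.72 CPM in wild type with a median of 4.26. All 4 groups were apart from each other. It rose by 0.43 ± 0.12 in line 1 and by 0.87 ± 0.11 in line 3 and fell by 0.62 ± 0.13 in line 2 on the log2 scale (adjusted p = 0.00987, 8.94e-05 and 0.00104).
PCDHB10 (chr5:141192353-141195642) had 9.27 and 9.05 CPM in line 1, 9.56 and 11.7 CPM in line 2 and 13.6 and 14.8 CPM in line 3, against 8.34 to 9.64 CPM in wild type with a median of 9.22. PCDHB9 (chr5:141187127-141191541), its neighbour, had 4.30 and 3.76 CPM in line 1, 4.0 and 4.90 CPM in line 2 and 2.88 and 2.56 CPM in line 3, against 4.57 to 5.45 CPM in wild type with a median of 5.23. Line 3 was the highest for PCDHB10 and the lowest for PCDHB9, with log2 fold changes of 0.65 ± 0.092 and -0.92 ± 0.14 (adjusted p = 0.000229 and 0.000572).
PCDHB14 (chr5:141222932-141227759), next to PCDHB15 on the chromosome, had 18.9 and 18.9 CPM in line 1, 18.9 and 18.8 CPM in line 2 and 14.3 and 15.1 CPM in line 3, against 17.6 to 19.2 CPM in wild type with a median of 18.5. It fell in line 3 alone (log2 fold change -0.33 ± 0.076, adjusted p = 0.0141), and in line 2, where PCDHB15 was lowest, it stood at 0.026 ± 0.074. The pseudogenes PCDHB18P and PCDHB19P, which lie between these genes, fell in line 2 as well. PCDHB18P had 0.536 and 0.347 CPM in line 2, against 0.914 to 1.41 CPM in wild type, and PCDHB19P had 0.282 and 0.193 CPM in line 2, against 0.548 to 0.856 CPM in wild type. Their log2 fold changes in line 2 were -1.31 ± 0.31 and -1.48 ± 0.36 (adjusted p = 0.00204 and 0.00243); PCDHB18P was named after its values were seen.

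PCDHB8 rose in lines 1 and 2, PCDHB7 rose in line 2, and PCDHB16 and PCDHB13 fell in line 2. PCDHB8 (chr5:141177790-141180529) had 3.75 and 3.82 CPM in line 1, 4.40 and 3.86 CPM in line 2 and 2.81 and 2.29 CPM in line 3, against 2.20 to 3.18 CPM in wild type with a median of 2.65. Lines 1 and 2 lay above wild type and line 3 inside its range, with log2 fold changes of 0.48 ± 0.15, 0.60 ± 0.15 and -0.10 ± 0.16. The rises passed at adjusted p = 0.0235 and 0.00351.
PCDHB16 (chr5:141181399-141186399) had 2.53 and 3.17 CPM in line 1, 1.97 and 1.39 CPM in line 2 and 1.91 and 1.81 CPM in line 3, against 2.21 to 3.20 CPM in wild type with a median of 2.63. PCDHB7 (chr5:141172619-141176383) had 1.89 and 1.87 CPM in line 1, 2.11 and 1.89 CPM in line 2 and 1.50 and 1.28 CPM in line 3, against 1.28 to 1.61 CPM in wild type with a median of 1.43. PCDHB13 (chr5:141213919-141218979) had 2.50 and 2.77 CPM in line 1, 2.17 and 1.58 CPM in line 2 and 3.01 and 4.37 CPM in line 3, against 2.09 to 3.92 CPM in wild type with a median of 2.87. In line 2 the log2 fold changes were -0.67 ± 0.19 for PCDHB16, 0.48 ± 0.18 for PCDHB7 and -0.59 ± 0.23 for PCDHB13 (adjusted p = 0.00888, 0.037 and 0.0452). For PCDHB13 1 of the 2 libraries lay inside the wild-type range.
PCDHB3 (chr5:141100473-141103827), the highest beta gene, had 23.1 and 22.5 CPM in line 1, 22.0 and 21.4 CPM in line 2 and 22.6 and 18.7 CPM in line 3, against 22.0 to 23.7 CPM in wild type with a median of 22.8. Its log2 fold changes were -0.0021 ± 0.073, -0.071 ± 0.075 and -0.15 ± 0.075 in lines 1, 2 and 3, and none passed. PCDHB4 and PCDHB6, the other beta genes of high level with no call, had adjusted p of 0.114 to 0.924 over the 3 lines.
Some beta genes are alike in sequence. Of their own 100-base windows, 25.6% in PCDHB8, 24.7% in PCDHB10, 15.1% in PCDHB13 and 10.9% in PCDHB9 also occur in another gene, beside 6.40% in PCDHB15 and 5.77% in PCDHB12. PCDHGB4 shared 16.7% and PCDHGB7 3.83%, and PCDHGA7, PCDHGC3, PCDHGC4, PCDHAC1 and PCDHAC2 shared 0. Reads of shared stretches may have been split or dropped, so values of the first group are less certain. Genes other than protocadherins that overlap a member on either strand reached at most 1.22 CPM in the alpha, 0.469 CPM in the beta and 0 CPM in the gamma cluster. Protocadherins that overlap each other were left out of these values. Members of the alpha and gamma clusters share exon bases within their cluster, and in PCDHGB4 2459 of 6906 exon bases are its own.

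In the alpha cluster PCDHA10 fell in lines 1 and 2 beside the rise of PCDHAC1 and PCDHAC2. PCDHA10 (chr5:140855883-141012344) had 2.79 and 1.44 CPM in line 1, 2.17 and 2.05 CPM in line 2 and 3.08 and 2.77 CPM in line 3, against 3.09 to 4.46 CPM in wild type with a median of 3.60. All 6 knockout libraries lay below the wild-type range, line 3 only by a small margin. The log2 fold change was -0.82 ± 0.20 in line 1 and -0.81 ± 0.20 in line 2 (adjusted p = 0.00434 and 0.00323), and in line 3 it was -0.34 ± 0.19 (adjusted p = 0.355). The difference among lines did not pass for PCDHA10 (adjusted p = 0.222).
PCDHA8 (chr5:140841187-141012344) had 1.37 and 2.60 CPM in line 1, 2.20 and 2.51 CPM in line 2 and 2.14 and 1.25 CPM in line 3, against 1.42 to 1.58 CPM in wild type with a median of 1.47. It passed in line 2 (log2 fold change 0.66 ± 0.23, adjusted p = 0.0248); in lines 1 and 3 the 2 libraries fell on different sides of the wild-type range. Of the 10 tested alpha genes 0 passed in line 3 by edgeR, DESeq2 or limma-voom, and 1 had an unadjusted p under 0.05 by each. By edgeR 5% of all genes tested passed in line 3, and 18.5% had an unadjusted p under 0.05. The alpha counts were not tested against these shares.

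Some of these calls were lost when 1 library of the line was left out. Such a fit leaves 1 library in the line, and in each of these fits a smaller share of all genes passed too. A lost call is thus not particular to the protocadherins. Without the heavy library of line 1, 11 genes passed in line 1, all 10 of the first count among them, and the log2 fold change was 1.70 in place of 1.25 for PCDHAC1 and -1.31 in place of -0.82 for PCDHA10, with the others between 0.42 for PCDHGC4 and 1.03 for PCDHGA1. Without the light library of line 1, 4 passed: PCDHAC2, PCDHGA7, PCDHGB7 and PCDHGC3 kept their calls, and PCDHA10, PCDHAC1, PCDHB8, PCDHB12, PCDHGA1 and PCDHGC4 had adjusted p of 0.0901 to 0.613. In line 2, leaving out the heavy library took 8 of the 18 calls (PCDHA8, PCDHA10, PCDHB7, PCDHB8, PCDHB13, PCDHGA6, PCDHGA10 and PCDHGB6; adjusted p 0.0602 to 0.223) and leaving out the light library took 6 (PCDHA8, PCDHB7, PCDHB13, PCDHB16, PCDHGA6 and PCDHGA10; 0.125 to 0.384). In line 3, leaving out the heavy library took PCDHB14, PCDHGA2 and PCDHGB4 (adjusted p 0.154 to 0.248), for a count of 5, and leaving out the light library took these and PCDHGA7 (0.0544 to 0.0857), for a count of 4. PCDHB9, PCDHB10, PCDHB12 and PCDHB15 kept their line 3 calls in every fit with 1 library left out.

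Summed over a cluster, the beta genes changed little and the gamma genes did so by line. The beta genes together had 108 and 109 CPM in line 1, 102 and 102 CPM in line 2 and 103 and 101 CPM in line 3, against 105 to 110 CPM in wild type with a median of 108. Lines 2 and 3 lay just below the wild-type range, and line 1 inside it. The gamma genes together had 129 and 161 CPM in line 1, 170 and 187 CPM in line 2 and 101 and 96.4 CPM in line 3, against 102 to 113 CPM in wild type with a median of 107. Without the C-type genes the gamma sum was 52.8 and 63.8 CPM in line 1, 82.0 and 86.7 CPM in line 2 and 32.3 and 31.6 CPM in line 3, against 41.0 to 45.3 CPM in wild type with a median of 42.8. The sum of the variable gamma genes was thus below wild type in line 3 and above it in lines 1 and 2. Much of this sum is PCDHGB7 and PCDHGA7. PCDHGB7 averaged 22.2 and 45.0 CPM in lines 1 and 2 against 15.2 CPM in wild type, and PCDHGA7 20.2 and 23.0 CPM against 11.5 CPM. The median log2 fold change in lines 1 and 2 was -0.13 and -0.25 over the tested PCDHGA genes. Over the tested PCDHGB genes it was 0.17 and 0.11. The alpha sum was 24.3 and 31.8 CPM in line 1, 32.0 and 30.5 CPM in line 2 and 22.4 and 19.1 CPM in line 3, against 20.8 to 21.9 CPM in wild type with a median of 21.2, and without PCDHAC1 and PCDHAC2 it was 10.3 and 11.1, 12.2 and 12.3, and 12.0 and 9.61 CPM in lines 1 to 3, against 11.3 to 11.9 CPM in wild type. These sums are over chosen members and were not tested.

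**Figure D4:**
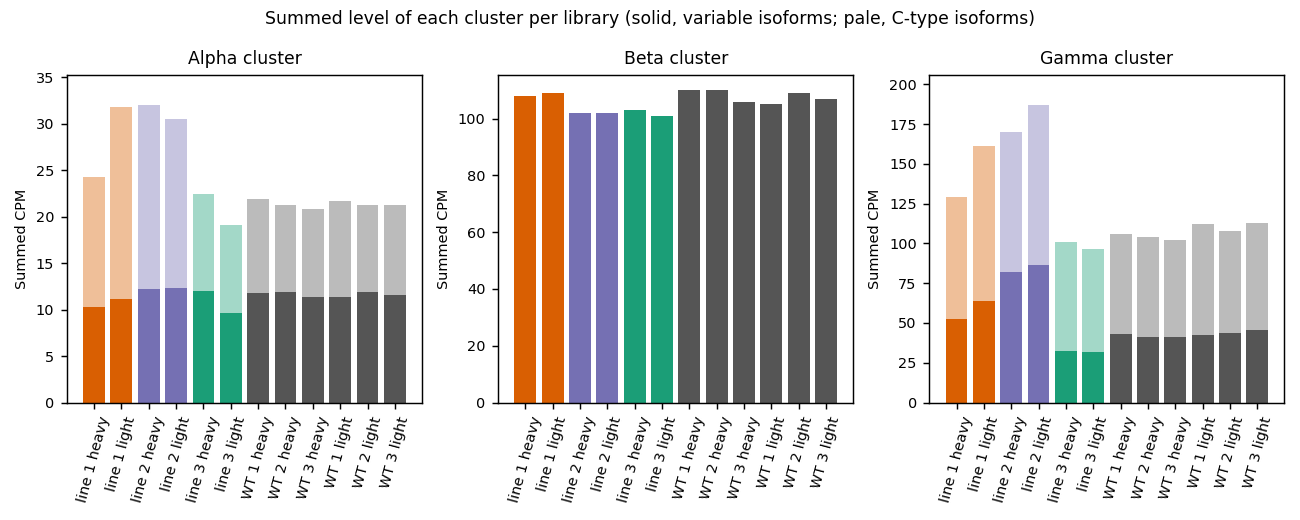
Summed CPM of the alpha, beta and gamma cluster in each of the 12 libraries (vertical axis, from 0), knockout lines left of wild type; the solid part of a bar is the variable isoforms and the pale part the C-type isoforms. The gamma bars of line 2 reach 170 and 187 CPM, those of wild type 102 to 113 CPM, and the beta bars of all libraries lie between 101 and 110 CPM.

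The make-up of a cluster also differed by line. By level per kilobase, PCDHGB7 made up 27.4% of the gamma cluster in both libraries of line 2, 16.7% to 17.3% in line 1 and 14.3% to 14.7% in line 3, against 14.7% to 17.6% in wild type. PCDHGC3, although its level rose in line 2, made up 30.3% to 30.8% of the cluster there, against 35.3% to 36.4% in wild type, and in line 3, where its level did not pass, 41.0% to 42.2%. PCDHAC1 made up 11.6% to 16.4% of the alpha cluster in line 1, 16.3% to 16.7% in line 2 and 8.81% to 10.1% in line 3, against 6.44% to 10.3% in wild type. PCDHB15 made up 1.08% to 1.28% of the beta cluster in line 2 and 2.70% to 2.98% in line 3, against 4.79% to 6.43% in wild type. The effective number of isoforms, the number of equally used genes that would give the same Shannon entropy, was 5.78 to 6.29 in line 1, 5.51 to 5.91 in line 2 and 5.46 to 5.75 in line 3 for the gamma cluster, against 6.41 to 6.78 in wild type. It was 5.14 to 5.44, 5.51 to 5.60 and 6.41 to 6.51 in lines 1, 2 and 3 for the alpha cluster, against 6.62 to 7.25 in wild type, so all 6 knockout libraries held fewer effective isoforms in both clusters. For the beta cluster it was 9.53 to 9.79, 8.62 to 8.77 and 9.39 to 9.73, against 9.29 to 9.65 in wild type.

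Whether the lines differ from each other was tested directly, with an F test of the 3 lines in the same fit. It passed for 18 of the 45 genes (40.0%, beside 23.2% of all genes tested): 2 of 10 alpha, 8 of 15 beta and 8 of 20 gamma genes. PCDHGB7, PCDHGA7, PCDHB15 and PCDHB12 had the smallest adjusted p (7.95e-09, 1.36e-07, 4.57e-07 and 5.02e-06). Without the light library of line 3 the count was 10, and PCDHAC1, PCDHB8, PCDHB9, PCDHB13, PCDHB16, PCDHGA2, PCDHGA4 and PCDHGC3 no longer passed (adjusted p 0.0507 to 0.273). Without the heavy library of line 1 it was 19. The share of all genes that passed also fell without the light library of line 3 and rose without the heavy library of line 1. With the 6 knockout libraries alone the count was 11 of 44 members tested, beside 12.7% of all genes.

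Taking the 6 knockout libraries together against the 6 wild-type libraries answers the question of the series' own design. It called 7 of 45 genes (15.6%, beside 24.8% of all genes tested), 3 higher and 4 lower. The C-type genes PCDHGC3, PCDHAC1 and PCDHAC2 were higher, at 52.8 ± 9.13, 4.05 ± 1.87 and 11.4 ± 3.02 CPM in knockout and 40.6 ± 1.95, 1.86 ± 0.317 and 7.85 ± 0.304 CPM in wild type (SD, n = 6 each). Their log2 fold changes were 0.38, 1.12 and 0.53 (adjusted p = 0.0103, 0.0183 and 0.0233). PCDHGB6, PCDHA10, PCDHB9 and PCDHA6 were lower, with log2 fold changes of -0.82, -0.64, -0.46 and -1.52 (adjusted p = 0.0127, 0.0141, 0.0331 and 0.0496). PCDHA6, with at most 17 counts in any library, had 0.0581 and 0.283 CPM in line 1, 0.141 and 0.0386 CPM in line 2 and 0 and 0.0799 CPM in line 3, against 0.132 to 0.548 CPM in wild type with a median of 0.304; it lost its call in 11 of 12 fits with 1 library left out. PCDHAC2 lost its call in 6 and PCDHB9 in 5 of these 12 fits, and PCDHAC1 lost it by limma-voom (adjusted p = 0.057) and with no filter on low counts (adjusted p = 0.0515). Of the 18 genes that differed among lines, PCDHAC1, PCDHAC2, PCDHGC3 and PCDHB9 passed here too, and the others did not, among them PCDHB15 (-0.78 ± 0.38, adjusted p = 0.155), PCDHB12 (0.35 ± 0.25, adjusted p = 0.321) and PCDHGB7 (0.81 ± 0.34, adjusted p = 0.109). The 6 libraries entered this fit singly, while only 3 lines were made. With the counts summed per line and wild-type number, 3 against 3, edgeR called 0 members (11 at an unadjusted p under 0.05) and 1.53% of all genes. Within heavy medium alone it called 0 (8 unadjusted), beside 0.112% of all genes. Within light medium alone it called 0 (7 unadjusted), beside 1.44% of all genes. At these shares a count of 0 says little. Leaving out 1 library gave counts of 4 to 14. The 4 came without the third wild-type library of light medium, beside 17% of all genes. The 14 came without line 3 in light medium, beside 35% of all genes.

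The medium made no detectable difference to the protocadherins. Heavy against light medium called 0 of 45 genes (0% of all genes tested) by edgeR, with 3 at an unadjusted p under 0.05, and 0 by DESeq2 and by limma-voom, with 1 and 4 unadjusted. Log2 fold changes of heavy over light lay between -0.44 and 0.44, and the smallest adjusted p was 0.682, for PCDHGC3.

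Other genes of the pathway were taken from lists. Of 27 regulators of protocadherin promoter choice, all of them tested, 10 were lower in line 1 (37.0%, beside 12.8% of all genes called lower). In line 2, 14 were lower, beside 20.1% of all genes called lower, and 1 was higher (55.6% in all, beside 43% of all genes called). In line 3, 0 passed by edgeR (5 unadjusted), beside 5% of all genes, 0 by limma-voom and 1 by DESeq2. Over all knockout libraries 9 were lower (33.3%, beside 9.78% of all genes called lower). SMC3, a core subunit of cohesin, averaged 166 ± 6.11 CPM in knockout and 194 ± 11.4 CPM in wild type (SD, n = 6 each), a log2 fold change of -0.23. STAG1, another cohesin subunit, averaged 52.8, 49.0 and 68.6 CPM in lines 1 to 3 against 76.4 CPM in wild type, and TET1, which starts the removal of DNA methylation, 18.1, 13.8 and 18.6 CPM against 22.5 CPM. The DNA methyltransferase DNMT3A had a log2 fold change of -0.18, UHRF1, which brings DNMT1 to newly copied DNA, -0.23, and REST, a repressor of neuronal genes, -0.34 over all knockout libraries (adjusted p from 0.00332 for SMC3 to 0.0118 for REST among these 6). CTCF, named after its values were seen, averaged 83.6, 77.0 and 98.2 CPM in lines 1 to 3 against 99.2 CPM in wild type. CTCF fell in lines 1 and 2 (log2 fold change -0.25 and -0.37, adjusted p = 0.00561 and 0.000123). The other cohesin subunits listed were also named after their values were seen. RAD21 was lower over all knockout libraries (log2 fold change -0.175, adjusted p = 0.0411). SMC1A, at 410 CPM in both groups, and STAG2 did not pass there (log2 fold changes 0.0013 and -0.13).
Of 12 protein partners and processing enzymes, 4 were higher and 1 lower in line 1, 7 higher and 1 lower in line 2 and 2 higher in line 3 (41.7%, 66.7% and 16.7%, beside 28.2%, 43% and 5% of all genes). RET, a receptor tyrosine kinase that binds protocadherins in mouse, averaged 63.0, 86.0 and 52.1 CPM in lines 1 to 3 against 36.8 CPM in wild type, and passed in all 3 (log2 fold changes 0.78, 1.22 and 0.50). PSEN2, NCSTN and PSENEN belong to gamma-secretase, which cuts protocadherins inside the membrane. PSEN2 averaged 26.2, 28.4 and 22.0 CPM in lines 1 to 3 against 17.8 CPM in wild type and also passed in all 3, and NCSTN (0.29 and 0.26 on the log2 scale) and PSENEN (0.22 and 0.25) rose in lines 1 and 2. MARCKS, an actin-binding membrane protein, averaged 388, 381 and 490 CPM in lines 1 to 3 against 503 CPM in wild type, and fell in lines 1 and 2.
Flanking genes of 5q31 were counted to see the neighbourhood. Of 28 tested, 10 passed in line 1 (8 higher, 2 lower), 11 in line 2 (9 higher, 2 lower) and 3 in line 3 (1 higher, 2 lower). These are 35.7%, 39.3% and 10.7%, beside 28.2%, 43% and 5% of all genes, and over all knockout libraries 7 passed (25.0%, beside 24.8%). RNF14, ZMAT2, RELL2, NDFIP1 and APBB3 were higher and DIAPH1 was lower over all knockout libraries, with log2 fold changes of 0.33, 0.17, 0.28, 0.29, 0.25 and -0.24. PCDH1, a protocadherin outside the clusters that was named after its values were seen, averaged 33.3, 38.0 and 14.0 CPM in lines 1 to 3 against 14.0 CPM in wild type, with log2 fold changes of 1.24 and 1.44 in lines 1 and 2 (adjusted p = 8.78e-08 and 4.97e-09) and of -0.0017 in line 3.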

How the data were processed

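The deposited table holds whole-number read counts per gene, not normalized, for 12 libraries made with a TruSeq Stranded mRNA kit, per the labels' protocols. Reads were converted with bcl2fastq 2.19.0, aligned with STAR 2.7.0f to GRCh38.p13 and counted with featureCounts of Subread 1.6.4, per the submitters' processing notes, which also name DESeq2 1.22.1 and R 3.5.1. Which annotation release was used, how strand was set and how reads with several matches were handled is not stated, so overlapping and near-identical genes are uncertain.

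Counts were tested with edgeR 4.0.16 (R 4.3.3): TMM scaling with factors of 0.981 to 1.024, filterByExpr with a count minimum of 10, which left 16704 of 59087 features, and robust quasi-likelihood tests with Benjamini-Hochberg adjustment at 0.05. One fit held medium and genotype; the other held medium and a factor of wild type and the 3 lines, numbered by the replicate number of the knockout labels. Standard errors are the log2 fold change over the square root of F. DESeq2 1.42.0 and limma 3.58.1 (voom) were alternatives, with other filters, size factors and libraries left out. The test code was tested on simulated data. Figures were drawn with matplotlib 3.10.9. A count of 0 allows up to 3 counts, for counting error only.

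Values per library are given for members that passed in a line or among lines (up to 24 genes), the 2 members of each cluster with the highest mean CPM and the C-type isoforms. Of the other lists, up to 6 genes are named by smallest p. The members and lists were chosen with earlier results of these data known. The summed level of the glial marker list is not reported here.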

Additional observations from a re-analysis of the deposited data

Results flagged for a closer look

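For 18 protocadherins the level differed among the 3 knockout lines by the F test of edgeR, adjusted over all 16704 genes tested. The adjusted p was 7.95e-09 for PCDHGB7, 1.36e-07 for PCDHGA7, 4.57e-07 for PCDHB15, 5.02e-06 for PCDHB12, 0.00052 for PCDHAC2 and 0.000596 for PCDHGC4. It was 0.00151 for PCDHB10, 0.00205 for PCDHAC1, 0.00263 for PCDHGB4, 0.00347 for PCDHGA1, 0.00372 for PCDHGC3 and 0.00933 for PCDHB14. For PCDHGA4, PCDHB9, PCDHGA2, PCDHB8, PCDHB16 and PCDHB13 it was 0.0111, 0.0117, 0.0137, 0.0244, 0.033 and 0.0358. PCDHB12 rose in lines 1 and 3 and fell in line 2, and PCDHGA7 rose in lines 1 and 2 and fell in line 3.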

How the results depend on the processing

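Line 1 had 4 to 11 calls, line 2 12 to 21, line 3 4 to 9, the test among lines 10 to 19, knockout against wild type 4 to 14 and the medium 0, when each library was left out in turn. The share of all genes called moved between these fits too. Knockout against wild type gave 0 calls with counts summed per line, 0 in heavy medium alone and 0 in light medium alone. Of all genes these fits called 1.53%, 0.112% and 1.44%, and fewer samples enter each of them. The next counts are for knockout against wild type, lines 1, 2 and 3 and the test among lines, in that order. DESeq2, run on all genes with any count, gave 10, 8, 14, 8 and 15 calls, beside 14.9%, 14.1%, 21.4%, 2.86% and 12.1% of all genes. For limma-voom they were 6, 10, 17, 8 and 17, beside 24.1%, 28.8%, 42.7%, 4.81% and 23.4%. With the replicate number as a block the counts were 10, 6, 12, 6 and 7, beside 26.8%, 21.3%, 33.6%, 1.8% and 10%. The numbers pair no knockout library with a wild-type library: same-numbered deviations correlated at -0.2 to -0.0249, against 0.145, 0.735 and 0.742 between the media of the 3 knockout lines. Among lines, the 6 knockout libraries alone gave 11 calls, beside 12.7% of all genes, and the lost genes had adjusted p of 0.0597 to 0.158. Over 61 gene results, 981 alternatives kept the call, 151 lost it and 0 reversed direction. Results of the test among lines have no direction, so they could be kept or lost only. The cause of these losses was not tested. At 25935152 to 40257027 counts per library, members with few counts, such as PCDHA6, carry wide counting error.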
